A study of Mus musculus with 4 samples.

Results

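High-mitochondrial barcodes are cell barcodes of the mouse heart immune libraries in which at least 10% of the gene UMIs (unique molecular identifiers, each standing for 1 captured transcript) came from the 13 mitochondrially encoded genes whose symbols start with mt-, and in which at least 200 genes were detected. They numbered 2767 of 7087 barcodes (39.0%; 95% Clopper-Pearson interval 37.9 to 40.2%) in the anti-CD40 library and 2245 of 4908 (45.7%; 44.3 to 47.1%) in the isotype library. They were split into barcodes with 10 to 25%, 25 to 50% and over 50% mitochondrial UMIs, which held 1824, 788 and 155 barcodes in the anti-CD40 library and 1417, 755 and 73 in the isotype library. The barcodes with under 10% mitochondrial UMIs, called low-mitochondrial here, numbered 4278 in the anti-CD40 library and 2558 in the isotype library. The remaining 42 anti-CD40 and 105 isotype barcodes had fewer than 200 genes, and each of them also had 10% or more mitochondrial UMIs.

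CITE-seq, which counts messages and surface-bound antibody tags in each cell, was run on hearts of C57BL6J mice treated with anti-CD40 agonist antibody or with rat IgG as the isotype control; CD40 is a costimulatory receptor of antigen-presenting cells. Each library pooled 4 hearts, so there was 1 sample per treatment, and no treatment difference below has a replicate check. Hearts were perfused, freed of the atria, digested for 20 min at 37 °C with collagenase, hyaluronidase and DNase and passed through 40-µm strainers, and their red cells were lysed. The sample titles and the protocols name a sort for CD45+DAPI- cells, whereas the series description names DRAQ5+DAPI- cells, and which of these gates was used could not be settled from the files.

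As background, mitochondria carry a small genome that encodes subunits of the respiratory chain, and its messages stay inside the organelle. When the plasma membrane of a cell is damaged, messages dissolved in the cytosol can leak out while those inside mitochondria and the nucleus are held back, which raises the mitochondrial share of what remains. Cells rich in mitochondria, above all cardiomyocytes, also have a high share without damage. DAPI enters cells with a leaky membrane, so the sort was meant to keep intact cells, and CD45 is the common surface protein of leukocytes.

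The barcodes were chosen by their mitochondrial share, so that share is given as a description. Its median was 19.7% in anti-CD40 high-mitochondrial barcodes against 4.06% in low-mitochondrial ones, and 21.4% against 4.22% in the isotype library. The highest shares were 83.5% and 80.7% in the anti-CD40 and isotype libraries. Just inside the threshold, between 10 and 11%, lay 178 anti-CD40 and 112 isotype barcodes, with medians of 2182 and 1964.5 non-mitochondrial UMIs. Just outside, between 9 and 10%, lay 226 anti-CD40 and 110 isotype barcodes, with medians of 3034.5 and 2229.5 such UMIs. At the gene minimum, 59 anti-CD40 and 47 isotype members had 200 to 220 genes, and 33 and 29 barcodes past the mitochondrial threshold had 180 to 199 genes. No gap in the values separated the groups at either threshold.

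mt-Co1 (ENSMUSG00000064351), a subunit of cytochrome c oxidase, and mt-Nd1 (ENSMUSG00000064341), a subunit of complex I, were read as markers of the group. In anti-CD40 barcodes mt-Co1 made up 2.28%, 4.65% and 8.63% of gene UMIs in the bands of 10 to 25%, 25 to 50% and over 50%, against 0.647% in low-mitochondrial barcodes. In isotype barcodes it made up 2.57%, 5.45% and 9.84% in the same bands against 0.827%. Its absolute number per barcode moved far less. The median was 48, 54 and 75 mt-Co1 UMIs per anti-CD40 barcode in the 3 bands against 52 in low-mitochondrial barcodes, and 37, 47 and 87 against 39 in the isotype library. For mt-Nd1 the medians were 17, 21 and 29 against 17 in the anti-CD40 library, and 12, 15 and 26 against 13 in the isotype library. In the band of 10 to 25%, which held 65.9% of the anti-CD40 and 63.1% of the isotype members, a barcode thus carried about as many copies of both markers as a low-mitochondrial barcode.

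Over all barcodes, the median sum of the mitochondrial genes was also close between the groups, while that of all other RNA differed far more. Among barcodes grouped by marker genes or by depth the mitochondrial sum was not always close, as given below. The median barcode held 358 mitochondrial UMIs in anti-CD40 high-mitochondrial barcodes against 344 in low-mitochondrial ones, and 249 against 236 in the isotype library. Non-mitochondrial UMIs had a median of 1223 in anti-CD40 high-mitochondrial barcodes against 7874 in low-mitochondrial ones, a 6.44-fold lower value. In the isotype library the medians were 824 against 5186, 6.29-fold lower. By band, the non-mitochondrial median was 1611.5, 784 and 349 UMIs in anti-CD40 barcodes of 10 to 25%, 25 to 50% and over 50%, and 1030, 557 and 360 in isotype barcodes. Mitochondrial UMIs went the other way, with medians of 328, 395.5 and 536 in the anti-CD40 bands and 217, 281 and 502 in the isotype bands. The number of genes detected followed the non-mitochondrial UMIs, with medians of 757 against 2646 in the anti-CD40 library and 551 against 2030 in the isotype library. Because the mitochondrial share has the other UMIs in its denominator, low depth and membership are linked by the rule itself. In all, the high-mitochondrial barcodes held 11.6% of the gene UMIs of the anti-CD40 library but 37.5% of its mitochondrial UMIs, and 15.2% and 41.5% in the isotype library.

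Antibody tags, which are counted apart from the genes and are not part of the rule, differed less between the groups than the non-mitochondrial transcripts did. The median was 2247 tag UMIs per anti-CD40 high-mitochondrial barcode against 2935 in low-mitochondrial ones, 0.766 of their value, and 1964 against 2443 in the isotype library, 0.804 of their value. By band the medians were 2463, 2021.5 and 1651 in the anti-CD40 library, whereas the isotype medians of 1971, 1864 and 2634 were highest over 50%.

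**Figure D1:**
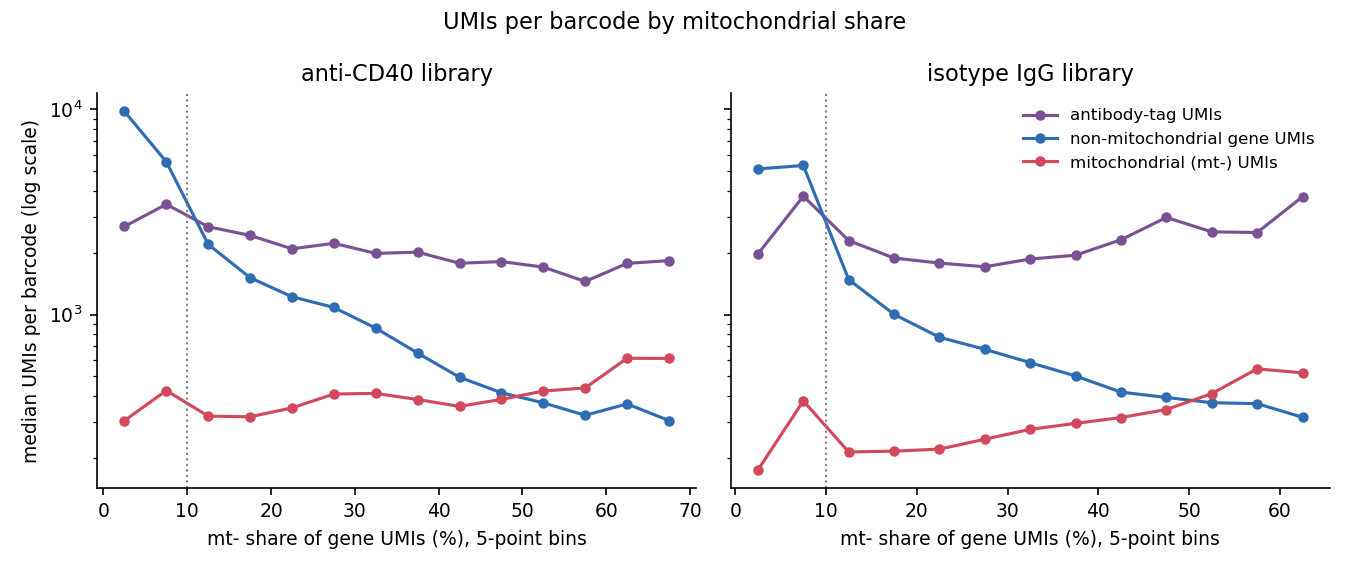
Median UMIs per barcode (log scale) against the mitochondrial share of gene UMIs in 5-point bins, for antibody tags, non-mitochondrial genes and mitochondrial genes, with the anti-CD40 library on the left and the isotype library on the right; the dotted line marks the 10% threshold. Non-mitochondrial UMIs fall steeply with the share, while tag UMIs and mitochondrial UMIs change much less.

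The makeup of the mitochondrial RNA differed little between the groups. mt-Co3, the most abundant of the 13 genes, took 22.9% of mitochondrial UMIs in anti-CD40 high-mitochondrial barcodes against 21.7% in low-mitochondrial ones, and 21.1% against 19.9% in the isotype library. mt-Cytb, of complex III, took 10.7% against 10.4% and 11.2% against 10.3%, and mt-Atp6, of ATP synthase, 16.6% against 16.7% and 15.1% against 15.6%. mt-Co2 was slightly lower in both libraries, at 15.1% against 16.1% and 13.02% against 14.01%. The order of the 13 genes by abundance was the same in both groups of the anti-CD40 library, and in the isotype library mt-Nd1 and mt-Nd2 changed places.

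The ratio of mean UMIs per barcode between the groups differed widely among classes of RNA. Mean mitochondrial UMIs per high-mitochondrial barcode were 0.937 of the low-mitochondrial mean in the anti-CD40 library and 0.838 in the isotype library. Malat1, a long noncoding RNA held in the nucleus, was at 0.486 and 0.380 of the low-mitochondrial mean. Gene models that overlap ribosomal RNA sequence (Gm42418, Gm26917 and AY036118) were at 0.597 and 0.530. These 2 classes stood well above non-mitochondrial RNA as a whole, which was at 0.170 and 0.174.

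Lists of cytosolic messages had lower ratios. Abundant cytosolic transcripts such as Actb, Gapdh and Tmsb4x were at 0.0864 of the low-mitochondrial mean in the anti-CD40 library and 0.0855 in the isotype library. Ribosomal protein genes were at 0.0871 and 0.0891. Nuclear genes for the respiratory chain, whose protein products are imported into mitochondria but whose messages lie in the cytosol, were at 0.0943 and 0.101.

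**Figure D2:**
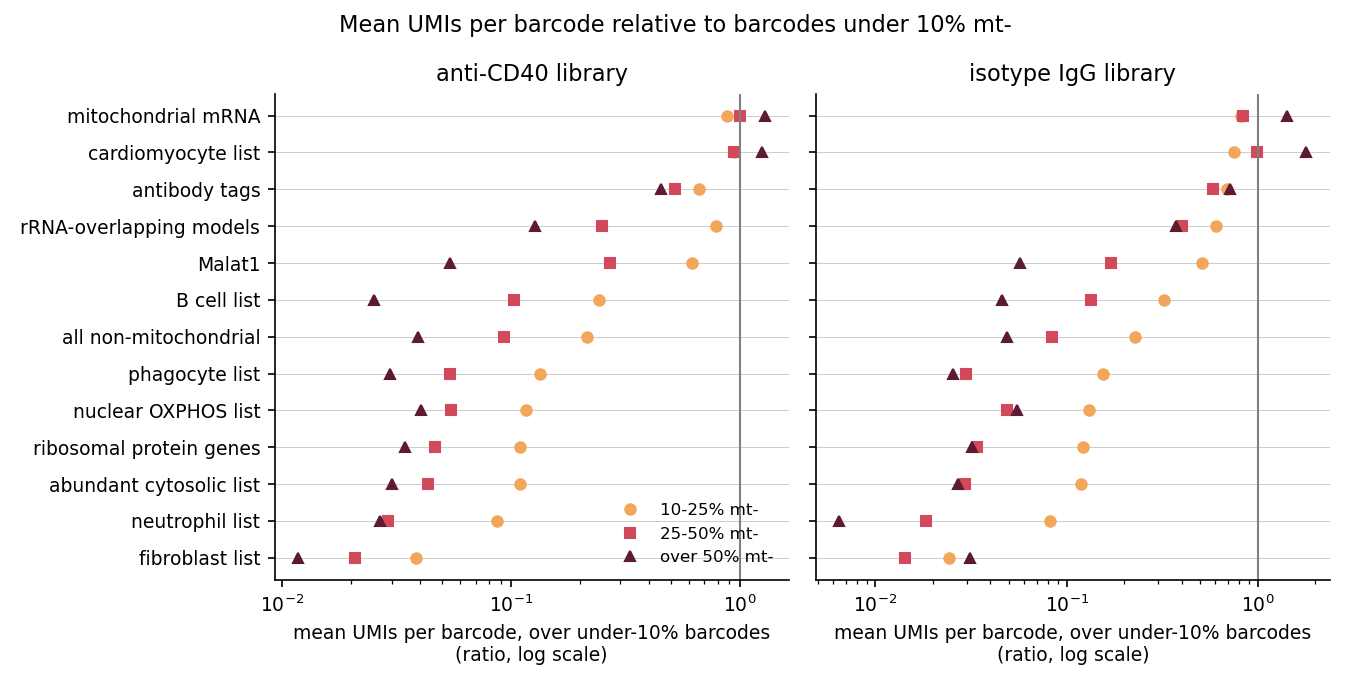
Mean UMIs per barcode in each band of high-mitochondrial barcodes divided by the mean in low-mitochondrial barcodes (ratio, log scale), by RNA class, with the anti-CD40 library on the left and the isotype library on the right; the grey line marks equal means. In the band of 10 to 25%, mitochondrial RNA (0.877 and 0.812) and the cardiomyocyte list (0.941 and 0.746) lie nearest to 1, and the fibroblast list (0.0385 and 0.0243) lies lowest of the classes plotted, in the anti-CD40 and isotype libraries.

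Gene levels were then compared as shares of the non-mitochondrial UMIs, scaled as CPM, so that the rule's own genes do not enter the denominator. A gene was called when it differed over 2-fold on the log2(CPM + 10) scale and the 95% counting interval of its ratio left out 1, among genes with at least 30 UMIs. In high-mitochondrial against low-mitochondrial barcodes, 222 of 13247 genes (1.68%) were called higher and 183 (1.38%) lower in the anti-CD40 library. In the isotype library 164 of 12850 (1.28%) were higher and 231 (1.8%) lower. Calls in both libraries took in 87 higher and 111 lower genes of 12558 tested in both, with 0 called in opposite directions. The median gene lay at 0.10 and 0.09 on the log2 scale. Scaling by edgeR's TMM factors moved the log2 ratios of CPM, before 10 CPM was added, by -0.27 and -0.20. The median gene then lay at -0.0035 and -0.0029 on the log2(CPM + 10) scale. This scaling gave 55 higher and 543 lower genes in the anti-CD40 library and 60 and 456 in the isotype library. The intervals cover counting error only, since both groups come from the same library.

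By band against low-mitochondrial barcodes, the anti-CD40 library had 163 genes higher (1.23%) and 210 lower (1.59%) at 10 to 25%, 752 (5.76%) and 303 (2.32%) at 25 to 50%, and 322 (2.47%) and 79 (0.607%) over 50%. The isotype library had 110 higher (0.86%) and 205 lower (1.6%), 776 (6.17%) and 737 (5.86%), and 332 (2.65%) and 143 (1.14%) in the same bands. Most calls thus fell in the band of 25 to 50%, and the band over 50% held few barcodes and so few UMIs per gene.

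The models overlapping ribosomal RNA and some nuclear RNAs were higher in share. With Lars2 added to the list, all 4 ribosomal RNA models were called higher in both libraries, with median log2 ratios of 1.78 and 1.64. Gm42418 stood at 103619 CPM in anti-CD40 high-mitochondrial barcodes against 29515 CPM in low-mitochondrial ones, and at 69291 against 22782 CPM in the isotype library. Lars2, annotated as the mitochondrial leucyl-tRNA synthetase, stood at 966 against 279 CPM and at 849 against 261 CPM. Malat1 stood at 76804 against 26921 CPM in the anti-CD40 library and at 91571 against 41941 CPM in the isotype library. Kcnq1ot1, another nuclear noncoding RNA, was 2.12-fold and 2.20-fold higher. Both Malat1 and Kcnq1ot1 were called, out of 5 nuclear RNAs tested. Meg3, another of the list, was at 0.247 (0.106 to 0.493) and 0.405 (0.241 to 0.644) of its low-mitochondrial level, from 8 against 294 and 19 against 307 UMIs, and was not called. In the band over 50%, Malat1 was at 36991 CPM in the anti-CD40 library and 49283 CPM in the isotype library, below the mean of all high-mitochondrial barcodes. Gm42418 there was at 91217 and 172174 CPM. With only the low-mitochondrial barcodes under 2000 non-mitochondrial UMIs as the comparison, the log2 ratios of Lars2 and Malat1 in the anti-CD40 library were -0.12 and -0.21.

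Of the other genes higher in both libraries, Macf1, which links actin to microtubules, was 2.78-fold higher (2.68 to 2.88) in the anti-CD40 library and 2.55-fold (2.46 to 2.65) in the isotype library. Chd3, a chromatin remodeller, was 2.78-fold and 2.59-fold higher. Mapk8ip3, a scaffold of JNK signalling, was 3.15-fold and 2.87-fold higher, Paxbp1 3.22-fold and 2.68-fold, and Tpm1, a tropomyosin, 2.97-fold and 2.68-fold. With high-mitochondrial barcodes of any depth set against only low-mitochondrial ones under 2000 non-mitochondrial UMIs, the direction turned in the anti-CD40 library. The log2 ratios were -0.19 for Macf1, -0.39 for Chd3, -0.15 for Mapk8ip3 and -0.14 for Paxbp1. The direction turned in the isotype library for Tpm1, at -0.33, and Macf1 lay near 0 there. With both groups under 2000 such UMIs, none of these genes turned in either library. Macf1 was then at 1.17 and 1.36, Chd3 at 1.15 and 2.61 and Mapk8ip3 at 1.16 and 1.94. Paxbp1 was at 1.19 and 1.35 and Tpm1 at 1.92 and 1.04, and only Chd3 in the isotype library was called.

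Housekeeping messages of the cytosol were lower. Of 15 abundant cytosolic genes, 7 were called lower in the anti-CD40 library and 9 in the isotype library, with median log2 ratios of -0.95 and -1.04, and 0 were higher. Gapdh, a glycolytic enzyme, stood at 928 CPM in anti-CD40 high-mitochondrial barcodes against 2184 CPM in low-mitochondrial ones, and at 310 against 784 CPM in the isotype library. Of the ribosomal protein genes, 28 of 93 were called lower in the anti-CD40 library and 34 of 92 in the isotype library, with medians of -0.95 and -0.94. Of 40 nuclear genes of the respiratory chain, 5 and 3 were called lower, with medians of -0.79 and -0.69. Cox8a, a subunit of cytochrome c oxidase, stood at 331 against 747 CPM in the anti-CD40 library and at 238 against 515 CPM in the isotype library. Taldo1, of the pentose phosphate pathway, was at 0.409 and 0.368 of its low-mitochondrial level, and Sec61b, of the channel into the endoplasmic reticulum, at 0.414 and 0.376. Against low-mitochondrial barcodes under 2000 non-mitochondrial UMIs, Gapdh had a log2 ratio of 0.091 in the anti-CD40 library. With both groups under that limit its ratios were 0.897 and 0.582 in the anti-CD40 and isotype libraries, neither of them called.

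Of the neutrophil list, 7 of 12 genes were called lower in the anti-CD40 library and 6 of 11 in the isotype library, and 0 higher. S100a8 and S100a9, the calprotectin subunits of neutrophils and monocytes, were at 0.375 and 0.386 of their low-mitochondrial level in the anti-CD40 library and at 0.332 and 0.317 in the isotype library. Ly6c2, a marker of classical monocytes, stood at 111 CPM in anti-CD40 high-mitochondrial barcodes against 323 CPM in low-mitochondrial ones, and at 22.7 against 101 CPM in the isotype library. Plac8 was at 0.380 and 0.342, and Retnlg, a neutrophil gene, at 0.389 and 0.245. Of the NK cell list, 1 of 10 and 3 of 10 genes were called lower. Gzma, a granzyme of NK cells and T cells, was at 0.370 and 0.201, while between barcodes of both groups under 2000 non-mitochondrial UMIs it was at 1.20 and 0.327. Anxa2, S100a4 and Gng10 lay between 0.269 and 0.391 in both libraries, and in the anti-CD40 library S100a4 and Gng10 were at log2 ratios of 0.064 and 0.016 against low-mitochondrial barcodes under that depth.

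Lists tied to cell death and stress stood close to the background. Of 22 apoptosis genes, 1 was called higher in the anti-CD40 library, the survival gene Bcl2 at 163 against 67.9 CPM, and 0 in the isotype library. Of 16 immediate early genes, which tissue digestion is known to induce, 1 was called higher in the anti-CD40 library, Jun at 2061 against 1012 CPM, and 0 in the isotype library. The 10 heat shock genes gave 0 calls in either library, as did 11 genes of mitochondrial transcription and 16 of mitochondrial import and stress.

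Cardiomyocyte transcripts were higher in share. Of 25 cardiomyocyte genes tested, 15 were called higher in the anti-CD40 library and 14 in the isotype library, and 0 lower, with median log2 ratios of 1.099 and 1.17. Together the list made up 0.0776% of non-mitochondrial UMIs in anti-CD40 high-mitochondrial barcodes against 0.0138% in low-mitochondrial ones, a ratio of 5.63 (5.41 to 5.86). In the isotype library it made up 0.0802% against 0.0162%, a ratio of 4.96 (4.71 to 5.21). By band the share was 0.0603%, 0.140% and 0.441% in the anti-CD40 library and 0.0530%, 0.190% and 0.596% in the isotype library, so it was higher in each higher band. Against low-mitochondrial barcodes under 2000 non-mitochondrial UMIs, the ratio over all high-mitochondrial barcodes was 1.503 in the anti-CD40 library and 0.784 in the isotype library.

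Single genes of the sarcomere followed the list. Tnnt2, cardiac troponin T, stood at 78.7 CPM in anti-CD40 high-mitochondrial barcodes against 13.04 CPM in low-mitochondrial ones, 6.03-fold higher (5.30 to 6.87), and Tnni3, cardiac troponin I, stood at 90.7 against 16.2 CPM. Myl2, the ventricular regulatory myosin light chain, stood at 100.7 CPM in isotype high-mitochondrial barcodes against 23.9 CPM in low-mitochondrial ones, and Ttn, the giant spring protein titin, at 43.1 against 6.48 CPM. Mb, which encodes the oxygen store myoglobin, stood at 56.9 against 8.75 CPM in the anti-CD40 library and 67.9 against 11.6 CPM in the isotype library. Myl7, the atrial light chain, had 0 UMIs in the high-mitochondrial barcodes of both libraries. The atria had been removed before digestion, and whether this bears on the Myl7 count was not tested.

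Counted per barcode, cardiomyocyte transcripts were no more frequent in the high-mitochondrial barcodes as a whole. High-mitochondrial barcodes held a mean of 1.40 cardiomyocyte UMIs against 1.46 in low-mitochondrial ones in the anti-CD40 library, and 1.18 against 1.37 in the isotype library. The band over 50% stood above the low-mitochondrial mean, at 1.84 and 2.45 UMIs in the anti-CD40 and isotype libraries. A cardiomyocyte UMI was seen in 41.5% of anti-CD40 high-mitochondrial barcodes against 44.7% of low-mitochondrial ones, and in 29.7% against 36.1% in the isotype library. Over 50% it was seen in 38.1% of anti-CD40 and 49.3% of isotype barcodes. With each barcode thinned to 200 non-mitochondrial UMIs, these shares were 12.9% against 3.30% and 10.9% against 3.64%. These genes were listed as cardiomyocyte markers, yet barcodes led by leukocyte lists carried them. In barcodes led by the phagocyte list the cardiomyocyte share was 0.0600% in high-mitochondrial against 0.0132% in low-mitochondrial barcodes of the anti-CD40 library, and 0.0679% against 0.0149% in the isotype library. In isotype barcodes led by the B cell list it was 0.0167% against 0.00533%, from 124 and 132 UMIs. Empty droplets were not analysed here, so the level of free RNA in these libraries was not estimated and its part in the result was not tested. Doublets were not called, and their part was not tested either.

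A small number of barcodes stood apart from this spread. At least 10 cardiomyocyte UMIs were found in 68 of 2767 high-mitochondrial and 108 of 4278 low-mitochondrial barcodes of the anti-CD40 library. In the isotype library they were found in 47 of 2245 and 55 of 2558, so the shares were close in both libraries. The maximum was 97 against 104 UMIs in the anti-CD40 library and 116 against 110 in the isotype library. In the band over 50%, the 10 barcodes with most such UMIs held 68.1% of the band's cardiomyocyte UMIs in the anti-CD40 library and 75.4% in the isotype library. The smooth muscle genes Acta2, Tagln and Myh11 were called higher in the anti-CD40 library, but 383 of their 401 UMIs came from 2 barcodes.

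Each barcode, thinned to 200 non-mitochondrial UMIs, was next assigned to the marker list with most UMIs among 12 lists, where these were at least 2 and more than any other list's. Such a barcode is called led by that list, which is a reading of few UMIs and not a cell type. No barcode of either group was too shallow to be thinned. The phagocyte list, with Csf1r, C1qa and Adgre1 among its genes, led 63.3% of anti-CD40 high-mitochondrial barcodes against 64.5% of low-mitochondrial ones, and 31.4% against 50.6% in the isotype library. The B cell list led 32.9% of isotype high-mitochondrial barcodes against 16.9% of low-mitochondrial ones. These shares move with the setting, since thinning to 100 UMIs gave 37.2% and 18.3% phagocyte-led high-mitochondrial barcodes in the anti-CD40 and isotype libraries and 20.0% B cell-led ones in the isotype library. No list led 28.1% against 16.2% in the anti-CD40 library and 28.8% against 15.7% in the isotype library. The cardiomyocyte list led 1.52% against 0.117% and 2.49% against 0.508%, and in the band over 50% it led 5.16% of anti-CD40 and 12.3% of isotype barcodes.

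Read the other way, lineages differed in how many of their barcodes were high-mitochondrial. Of isotype barcodes led by the B cell list, 738 of 1170 were high-mitochondrial (63.1%; 60.2 to 65.8%), more than in the library as a whole. Of those led by the phagocyte list, 1752 of 4510 (38.9%) in the anti-CD40 library and 704 of 1999 (35.2%) in the isotype library were high-mitochondrial. For the neutrophil list these shares were 19.9% (118 of 594) and 11.2% (26 of 232), for the NK cell list 14.5% and 14.96%, and for the fibroblast list 7.02% (4 of 57) and 5.41% (2 of 37). For the cardiomyocyte list they were 89.4% (42 of 47) and 81.2% (56 of 69). Lineages differed in the mitochondrial RNA that a barcode held below the threshold. Neutrophil-led low-mitochondrial barcodes had medians of 30 and 19.5 mitochondrial UMIs in the anti-CD40 and isotype libraries, against 451 and 327 in phagocyte-led ones. In high-mitochondrial barcodes these medians were 288.5 and 464 in neutrophil-led ones, against 380 and 334 in phagocyte-led ones.

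**Figure D3:**
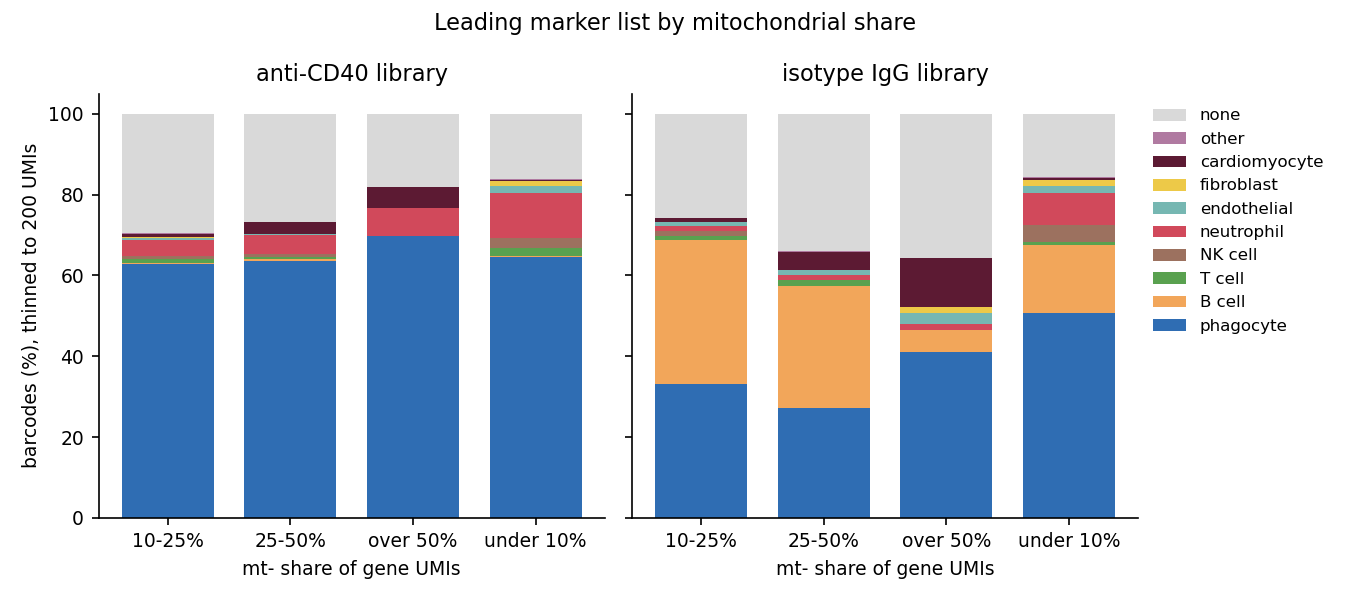
Share of barcodes (%) led by each marker list after thinning to 200 non-mitochondrial UMIs, stacked per band of mitochondrial share, with the anti-CD40 library on the left and the isotype library on the right. Phagocyte-led barcodes fill most of every anti-CD40 bar, B cell-led barcodes fill more of the isotype bars of 10 to 50% than of the isotype bar under 10%, and cardiomyocyte-led barcodes are visible over 50%.

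The comparison was repeated within phagocyte-led barcodes. In the anti-CD40 library 246 of 12348 genes (1.99%) were called higher and 133 (1.08%) lower in 1752 high-mitochondrial against 2758 low-mitochondrial barcodes. In the isotype library 92 of 11585 (0.794%) were higher and 122 (1.05%) lower, in 704 against 1295 barcodes. The cardiomyocyte list was higher in 11 of 21 genes and 13 of 20, and the ribosomal RNA models in 3 of 4 and 4 of 4. Ribosomal protein genes were lower in 26 and 11 of 92, and abundant cytosolic genes in 5 of 15 in both libraries. Lars2 was 3.43-fold and 3.11-fold higher, Mb 5.79-fold and 5.66-fold, and Ttn 5.24-fold and 6.61-fold. Ly6c2 was at 0.316 and 0.0940 of its low-mitochondrial level, Plac8 at 0.348 and 0.108, Stmn1, a microtubule regulator of dividing cells, at 0.380 and 0.350, and Gapdh at 0.429 and 0.417. The monocyte genes Ly6c2 and Plac8 were thus lower in high-mitochondrial barcodes inside this class too, and the part of the mix of monocytes and macrophages in these values was not tested.

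In isotype B cell-led barcodes, 738 high-mitochondrial against 432 low-mitochondrial, 357 of 8522 genes (4.19%) were called higher and 333 (3.91%) lower. Ribosomal protein genes were lower in 74 of 86 and abundant cytosolic genes in 12 of 15. The B cell list itself divided, with 3 genes higher and 3 lower of 13. Ebf1, a transcription factor of the B lineage, stood at 4154 CPM in high-mitochondrial barcodes against 1664 CPM in low-mitochondrial ones and Ralgps2 at 1412 against 544 CPM. Cd79a and Cd79b, the signalling chains of the B cell receptor, stood at 1092 against 2621 CPM and 779 against 1605 CPM, and Ly6d at 573 against 1519 CPM. Ighm, the heavy chain of IgM, was level at 3109 against 3108 CPM.

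Neutrophil-led barcodes of the anti-CD40 library gave 526 of 8175 genes (6.43%) higher and 191 (2.34%) lower in 118 high-mitochondrial against 476 low-mitochondrial barcodes. In the high-mitochondrial ones of this library the surface tags did not match the list. The median of the CD11b tag, the integrin of myeloid cells, was 24 UMIs in high-mitochondrial against 447.5 in low-mitochondrial barcodes, and that of Ly-6G, the neutrophil surface marker, was 0 against 10. The leading call rested on a median of 3 UMIs in the high-mitochondrial and 21 in the low-mitochondrial barcodes. In the isotype library, 26 neutrophil-led high-mitochondrial barcodes had medians of 315.5 CD11b and 11.5 Ly-6G UMIs, against 703.5 and 24 in 206 low-mitochondrial ones.

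Phagocyte-led barcodes bore the leukocyte tag CD45 and the myeloid tag CD11b, neither of them particular to phagocytes, and isotype B cell-led barcodes bore B cell tags. The CD45 tag had a median of 77 UMIs in anti-CD40 high-mitochondrial barcodes against 102 in low-mitochondrial ones, and 73 against 82 in the isotype library. By band its medians were 80, 73 and 67 in the anti-CD40 library and 78, 67 and 49 in the isotype library. In phagocyte-led barcodes CD45 was at 73.5 against 100 and 61 against 75 UMIs, and CD11b at 37 against 62 and 59 against 78 UMIs. In isotype B cell-led barcodes IgD was at 146 against 180 and B220 at 22 against 25 UMIs. Each of these medians was lower in the high-mitochondrial barcodes, by a smaller factor than their non-mitochondrial UMIs. The 9 control antibodies gave a median sum of 1 against 1.5 UMIs in the anti-CD40 library and 1 against 1 in the isotype library.

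Most barcodes led by the cardiomyocyte list also bore leukocyte tags. CD45 reached 10 UMIs in 76.2% of the 42 anti-CD40 and 73.2% of the 56 isotype high-mitochondrial barcodes led by it, with medians of 55 and 48.5 CD45 UMIs and of 31.5 and 52 CD11b UMIs. Endothelial-led low-mitochondrial barcodes, from cells that should lack CD45, had medians of 4 and 2 CD45 UMIs and of 943.5 and 732 UMIs of the endothelial protein CD31. Barcodes led by no list had 87 CD45 UMIs in high-mitochondrial against 106 in low-mitochondrial barcodes of the anti-CD40 library and 75 against 76 in the isotype library. Over all 198 tags the mean per barcode was at a median of 0.660 of the low-mitochondrial mean in both libraries. It was over 2-fold lower for 22 and 27 tags and over 2-fold higher for 2 and 0.

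**Figure D4:**
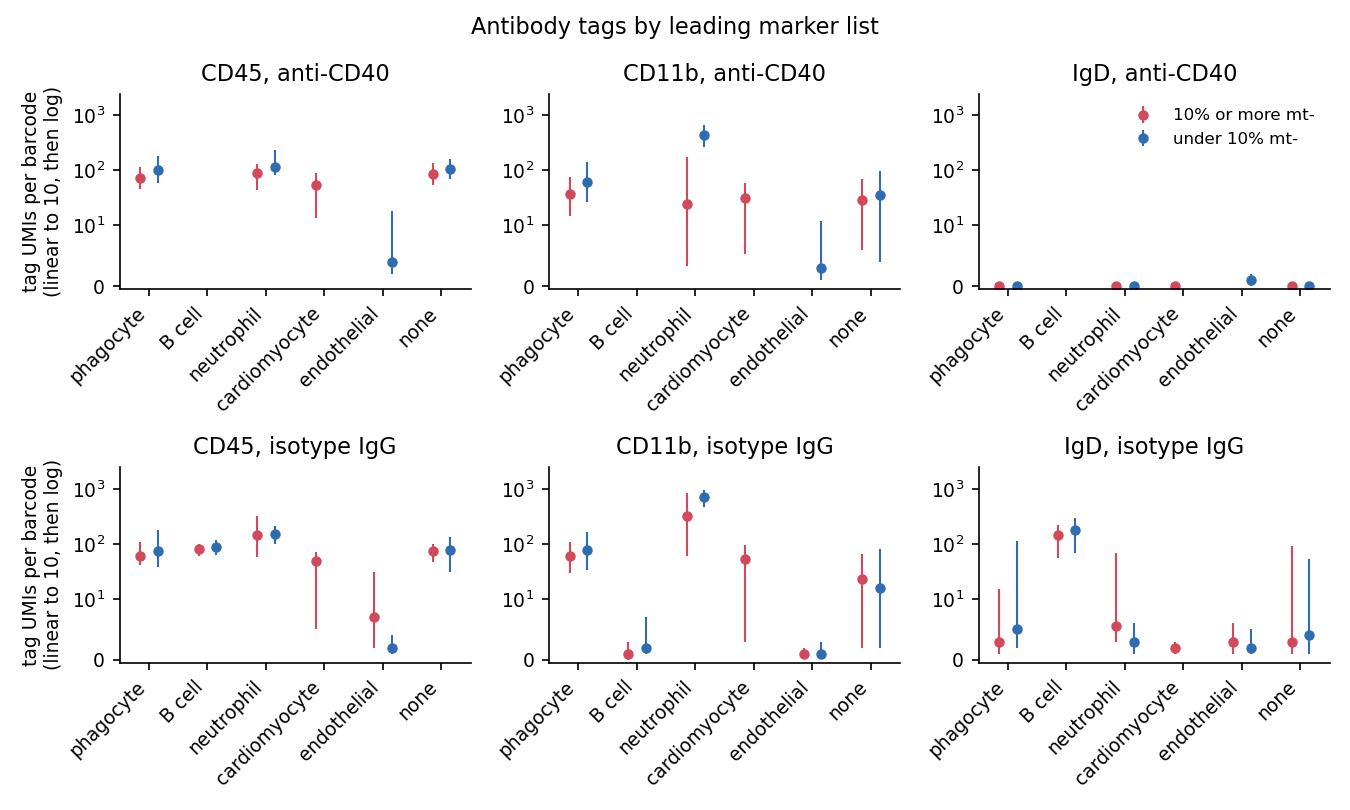
Tag UMIs per barcode (linear to 10, then log) for CD45, CD11b and IgD by leading marker list, with high-mitochondrial barcodes left of low-mitochondrial ones, the anti-CD40 library above and the isotype library below; points are medians and bars the quartiles. CD45 is near its low-mitochondrial level in phagocyte-led and B cell-led barcodes, and CD11b of neutrophil-led anti-CD40 barcodes is far below it.

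Low depth occurs at low mitochondrial share too, so the high-mitochondrial barcodes with under 2000 non-mitochondrial UMIs were set against low-mitochondrial ones under the same limit, a comparison added after the values were seen. These were 1979 (71.5%) of the high-mitochondrial against 682 (15.9%) of the low-mitochondrial barcodes in the anti-CD40 library, and 1902 (84.7%) against 599 (23.4%) in the isotype library. Their median non-mitochondrial UMIs were close, 923 against 1040 in the anti-CD40 library and 732 against 849 in the isotype library. Median mitochondrial UMIs were 282 against 47.5 and 226 against 27, a difference whose direction the rule fixes. Tag UMIs were higher in the high-mitochondrial barcodes, at 1832 against 1378 and 1778 against 763, and so was the CD45 tag, at 67 against 54 and 68 against 17 UMIs.

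At this matched depth the differences in nuclear, ribosomal and cytosolic RNA were smaller in the anti-CD40 library. In the isotype library those in Malat1 and the ribosomal RNA models were smaller, while those in ribosomal protein and abundant cytosolic genes changed little. In the anti-CD40 library 51 of 8582 genes (0.594%) were called higher and 176 (2.05%) lower, and in the isotype library 238 of 8138 (2.92%) and 219 (2.69%). Over barcodes of all depths these shares were 1.68% and 1.38% in the anti-CD40 library and 1.28% and 1.8% in the isotype library. The nuclear RNA Malat1 had ratios of 0.979 and 1.51, and the ribosomal RNA models 1.08 and 1.17 as a list. Ribosomal protein genes were at 0.964 in the anti-CD40 library, against 0.554 in the isotype library, and abundant cytosolic genes at 0.808 and 0.506. In the isotype library ribosomal protein genes made up 6.04% against 10.9% of non-mitochondrial UMIs at matched depth. Over isotype barcodes of all depths they made up 7.91% against 15.4%. Lars2 was 1.04-fold and 1.16-fold, Macf1 1.17-fold and 1.36-fold, and none of the 4 values was called. Shallow low-mitochondrial barcodes thus held shares of the ribosomal RNA models close to those of the high-mitochondrial ones. Among other named genes, Chd3 was 1.15-fold and, called, 2.61-fold higher, and Taldo1, at 0.471 and 0.338, was called lower in both libraries. S100a4, Sec61b and Anxa2, at 1.05, 0.859 and 0.702 in the anti-CD40 library, were called lower in the isotype library at 0.394, 0.407 and 0.369. Gapdh, at 0.897 and 0.582, and Gng10, at 1.03 and 0.546, were not called.

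Differences in neutrophil, endothelial and B cell transcripts were present at matched depth too. The neutrophil list was at 0.178 and 0.0775 of its low-mitochondrial level, and S100a8 at 0.180 and 0.0723. Neutrophil-led barcodes were 4.80% of the shallow high-mitochondrial against 14.1% of the shallow low-mitochondrial barcodes in the anti-CD40 library, and 0.578% against 9.02% in the isotype library. Endothelial-led ones were 0.404% against 3.08% and 0.946% against 3.01%. B cell-led barcodes were 36.9% against 16.9% in the isotype library. The cardiomyocyte list was 2.29-fold (2.06 to 2.56) higher in the anti-CD40 library and 1.11-fold (1.01 to 1.22) in the isotype library, and Mb, the gene for myoglobin, was 4.35-fold and 1.27-fold. The phagocyte list was at 1.27 in the anti-CD40 library, above its level in shallow low-mitochondrial barcodes, and at 0.619 in the isotype library. The NK cell and fibroblast lists, at 0.504 and 0.188 in the comparison of all anti-CD40 barcodes, were at 1.24 and 1.87 at matched depth. Their isotype ratios were 0.301 and 0.122 over all barcodes, and 0.474 and 0.324 at matched depth.

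At the other end, 161 anti-CD40 and 109 isotype high-mitochondrial barcodes had 5000 or more non-mitochondrial UMIs. Their median mitochondrial share was 11.96% and 12.1%, just past the threshold. They held a median of 5384 tag UMIs against 3808 in low-mitochondrial barcodes of 5000 or more UMIs in the anti-CD40 library, and 9257 against 4408 in the isotype library. The depths of these groups were not equal, with medians of 6608 against 12400 and 7787 against 10506 non-mitochondrial UMIs. Their CD45 medians were 166 against 128.5 and 272 against 125 UMIs. Doublets were not called, and their part in these deep barcodes was not tested.

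The treatment difference, which the rule did not use, was then read within the high-mitochondrial barcodes. Setting the anti-CD40 against the isotype library there, 368 of 11103 genes (3.31%) were called higher and 436 (3.93%) lower. In low-mitochondrial barcodes 260 of 13905 (1.87%) were higher and 333 (2.39%) lower. Of 31 genes of the interferon-gamma response, the programme by which macrophages react to T cell and NK cell cytokine, 29 were higher in high-mitochondrial barcodes, with a median log2 ratio of 2.76 beside -0.09 for all genes. In low-mitochondrial barcodes 30 of 31 were higher, with a median of 2.66. Within phagocyte-led barcodes 31 of 31 were higher in the high-mitochondrial and 30 of 31 in the low-mitochondrial ones, with medians of 2.80 and 2.68. Over all genes of phagocyte-led barcodes, 3.63% were called higher and 3.78% lower in high-mitochondrial ones, and 1.98% and 2.86% in low-mitochondrial ones. Scaling by TMM factors moved the ratios in high-mitochondrial barcodes by 0.13.

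Single genes of the response had high levels even in these shallow barcodes. Cxcl9, a chemokine that draws T cells, was 550-fold (252 to 1499) higher in anti-CD40 high-mitochondrial barcodes, from 5009 against 6 UMIs, and 430-fold higher in low-mitochondrial ones. Iigp1, an immunity-related GTPase, stood at 1546 against 11.5 CPM, 134-fold higher, beside 104-fold in low-mitochondrial barcodes. Gbp2, a guanylate-binding protein, was 74.4-fold higher beside 47.6-fold, and Gbp8 40.9-fold beside 29.4-fold. Gbp2b had 2240 UMIs against 1, a ratio with a lower interval bound of 264.5. The 2 genes of the list that were not called were Cd40, the target of the antibody, at 62.7 against 32.8 CPM, and Ciita, the activator of MHC class II genes, at 523 against 258 CPM.

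Outside the list, C3, the central complement component, stood at 603 CPM in anti-CD40 against 11.5 CPM in isotype high-mitochondrial barcodes, 52.3-fold higher beside 8.77-fold in low-mitochondrial ones. Cfb, complement factor B, was 69.4-fold higher beside 50.2-fold. Ccl8, a monocyte chemokine, was 134-fold higher, from 1422 against 7 UMIs, beside 55.3-fold. The difference between these ratios of high- and low-mitochondrial barcodes was not tested.

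B lineage genes formed the lower end. Of 13 genes of the B cell list, 13 were called lower in anti-CD40 high-mitochondrial barcodes. Ebf1 stood at 32.8 against 1437 CPM, 43.9-fold lower, beside 36.0-fold in low-mitochondrial barcodes. Igkc, the kappa light chain, was 25.1-fold lower, Cd79a 30.1-fold and Ighd 50.03-fold. Pax5 was 98.1-fold lower, from 10 against 646 UMIs. In a library of pooled cells, fewer cells of a type and less RNA per cell cannot be told apart in these sums. The B cell list, read from UMIs of the same genes, led 0.470% of anti-CD40 against 32.9% of isotype high-mitochondrial barcodes.

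Immediate early genes gave 5 of 16 called lower in anti-CD40 high-mitochondrial barcodes and 0 higher, among them Klf2 at 678 against 1981 CPM and Nr4a1 at 50.5 against 152 CPM. In low-mitochondrial barcodes 9 of 16 were lower. Heat shock genes gave 0 calls of 10 in high-mitochondrial barcodes and 3 lower in low-mitochondrial ones. Hspa1a, an inducible HSP70, stood at 754 CPM in anti-CD40 against 1174 CPM in isotype high-mitochondrial barcodes. B cell-led barcodes were 0.470% of the anti-CD40 against 32.9% of the isotype high-mitochondrial barcodes. The part of this unlike cell mix in the immediate early and heat shock values was not tested.

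**Figure D5:**
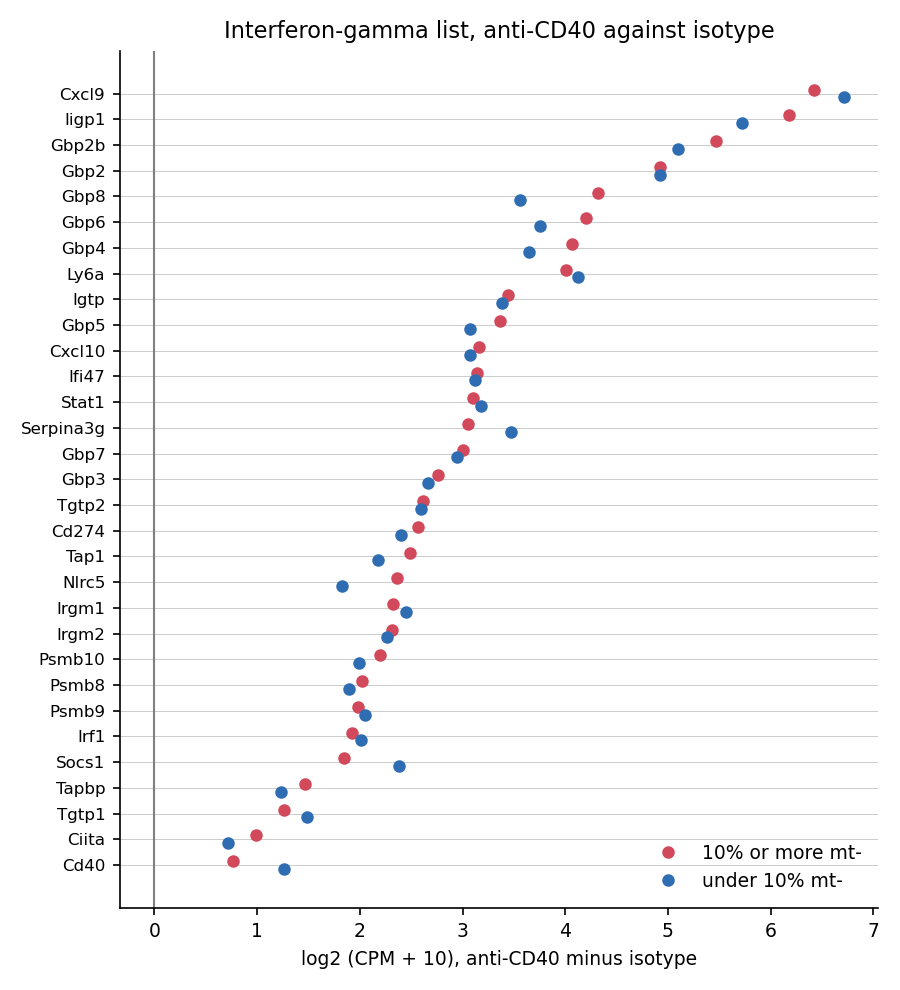
Difference of log2(CPM + 10), anti-CD40 minus isotype, for each gene of the interferon-gamma list, in high-mitochondrial and in low-mitochondrial barcodes. In high-mitochondrial barcodes the median is 2.76 and every gene lies above 0, with Cxcl9 and Iigp1 farthest to the right.

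The 2 libraries shared 13 barcode sequences in all, of which 3 were high-mitochondrial in the anti-CD40 library and 6 in the isotype library. The libraries came from separate pools of hearts, so a shared sequence does not mark a shared cell.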

How the data were processed

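The values are raw, unnormalized UMI counts, per the file headers written by Cell Ranger 6.0.1. Cell Ranger 3, Seurat 3 and the builds mm10 and GRCh38 are named, per the submitters' processing notes, with no role stated. The authors deposited 32285 genes and 198 tags for barcodes already selected, and no cell types. Total gene UMIs were 6223374 in anti-CD40 and 4093430 in isotype high-mitochondrial barcodes, against 47485251 and 22687435 in low-mitochondrial ones.

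UMIs were summed over the barcodes of each group. Shares have exact Clopper-Pearson intervals, and ratios of counts have exact conditional binomial intervals (95%), which cover counting error only. CPM has the non-mitochondrial gene UMIs as its denominator, and fold calls used log2(CPM + 10), at least 30 UMIs and a 2-fold limit. No replicates exist, so no p-value was computed. Tools were Python 3.11.15, NumPy 2.4.6, SciPy 1.17.1, pandas 2.3.3, matplotlib 3.10.9 and edgeR 4.0.16 (TMM factors only). The calling step was tested on simulated counts. The members, the gene lists and the comparisons were chosen with earlier results of these data known.

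Named genes are the 12 highest and 12 lowest by the smaller absolute log2 ratio of the 2 libraries, among genes called in the same direction in both. They had at least 30 UMIs in the higher group and were detected in at least 5% of its barcodes. Unnamed gene models, ribosomal protein genes, antigen receptor segments and sex-linked genes were passed over. The same rule took 6 of each within phagocyte-led barcodes, and 8 higher and 5 lower for the treatment. Malat1 and members of the gene lists were named besides. Single members of lists were picked as examples after their values were seen. Doublets were not called. Some genes and tags are not reported here.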

Additional observations from a re-analysis of the deposited data

Results flagged for a closer look

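Some ratios of high- to low-mitochondrial barcodes lay above 1 in one library and below 1 in the other. With 1 library per treatment the difference was not tested. The T cell list was at 0.852 of its low-mitochondrial share in the anti-CD40 library and at 1.15 in the isotype library over all high-mitochondrial barcodes. The endothelial list in the band of 25 to 50% was at 0.537 in the anti-CD40 library and 1.22 in the isotype library. The immediate early list in the same band was at 1.33 in the anti-CD40 library and 0.949 in the isotype library. The apoptosis list was at 1.02 in the anti-CD40 library and 0.919 in the isotype library over all high-mitochondrial barcodes, and at 1.04 and 0.929 in the band of 10 to 25%. In the band over 50%, with 155 anti-CD40 and 73 isotype barcodes, the median of tag UMIs was 0.563 of the low-mitochondrial median in the anti-CD40 library and 1.08 of it in the isotype library.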

How the results depend on the processing

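No paired analysis was possible because the treatment contrast has 1 library on each side, and the contrast of high against low mitochondrial share was made within each library. Values below give the anti-CD40 library before the isotype library unless 1 is named.

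Members and depth. With cutoffs of 5%, 15% and 20% the high-mitochondrial share was 61.1%, 27.8% and 19.1% in the anti-CD40 library and 65.6%, 34.7% and 25.1% in the isotype library. With at least 500 genes it was 29.3% and 26.8%, without mt-Co3 32.8% and 40.3%, and with no gene minimum 47.9% in the isotype library. Means in place of medians gave 1.64 and 1.53 times as many tag UMIs in low-mitochondrial barcodes. As shares of a barcode's tag UMIs, the median of CD45 was at 0.9501 and 1.12 of its low-mitochondrial value and CD11b at 0.743 and 0.403.

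Leading lists. Thinning to 100 UMIs, thinning to 500 UMIs and a minimum of 3 UMIs gave phagocyte-led shares of 37.2%, 83.3% and 46.0% in the anti-CD40 library and 18.3%, 44.4% and 21.0% in the isotype library, and B cell-led shares of 20.0%, 41.8% and 23.9% in the isotype library.

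List ratios of high- to low-mitochondrial barcodes. As shares of all gene UMIs, the cardiomyocyte list was at 4.73 and 4.19, the phagocyte list at 0.518 and 0.526, the neutrophil list at 0.329 and 0.281, the B cell list at 0.942 and 1.22 and the T cell list in the isotype library at 0.971. As means of each barcode's own share, they were at 5.18 and 3.14, 0.729 and 0.486, and 0.222 and 0.113, with the B cell list at 1.60 in the isotype library and the T cell list at 1.07 in the anti-CD40 library. Leaving out barcodes with markers of unrelated lineages removed 71.3% of high- against 86.7% of low-mitochondrial barcodes in the anti-CD40 library and 59.8% against 80.6% in the isotype library. These markers were read at each barcode's full depth, so the deeper low-mitochondrial barcodes were flagged more easily. They came from the same lists whose ratios follow, so those ratios are no separate check. The cardiomyocyte list was then at 3.63 and 7.77 and the neutrophil list at 1.57 and 0.256. In the anti-CD40 library the T cell, NK cell, endothelial and fibroblast lists were at 4.46, 2.75, 2.90 and 2.14, and in the isotype library the phagocyte list was at 0.542 and the B cell list at 1.07. The cause of these moves was not tested.

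Depth of the low-mitochondrial barcodes. With low-mitochondrial barcodes under 2000 non-mitochondrial UMIs only, the cardiomyocyte list was at 1.503 and 0.784, the phagocyte list at 1.41 and 1.11, the neutrophil list at 0.202 and 0.249, the fibroblast list in the anti-CD40 library at 1.497 and the B cell list in the isotype library at 1.30. Genes called higher were 36 and 81, and 135 were lower in the isotype library. In the anti-CD40 library the log2 ratios reversed for Lars2 (-0.12), Macf1 (-0.19), Paxbp1 (-0.14), Mapk8ip3 (-0.15), Chd3 (-0.39), Malat1 (-0.21), S100a4 (0.064), Gng10 (0.016) and Gapdh (0.091). In the isotype library they reversed for Tnnt2 (-0.24), Tnni3 (-0.47), Mb (-0.0780), Myl3 (-0.15), Myl2 (-0.47), Actc1 (-0.33), Tpm1 (-0.33) and Macf1 (-6.2e-04). With both groups under 2000 UMIs, an alternative added after the values were seen, the cardiomyocyte list was at 2.29 and 1.11, the phagocyte list in the anti-CD40 library at 1.27, the neutrophil list at 0.178 and 0.0775 and the B cell list in the isotype library at 1.65. In the anti-CD40 library the NK cell list was at 1.24 and the fibroblast list at 1.87, and 51 genes were called higher. Gzma (0.26), S100a4 (0.071), Gng10 (0.033) and Malat1 (-0.031) reversed there, and Tnni3 (-0.0012) did in the isotype library. Depth limits these readings, since a median high-mitochondrial barcode held 1223 and 824 non-mitochondrial UMIs.

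Gene calls. TMM factors gave 55 higher and 543 lower genes in the anti-CD40 library and 60 and 456 in the isotype library, and median-of-ratios scaling 56 and 537, and 60 and 456. A prior of 1 CPM gave 1057 higher and 486 lower, 828 and 693, and 703 and 979 for the treatment. A cutoff of 25% gave 476 higher in the anti-CD40 library and 520 higher and 604 lower in the isotype library. Of 690 values of named genes and list medians under the alternatives, 570 were counted as unchanged. These were genes that kept their call, or stayed uncalled, and list medians that kept their sign and moved little. Of the other values, 53 were genes that lost their call, 22 genes that reversed and 45 list medians that moved.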
